A study of Mus musculus with 5 samples.

Results

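The genes described here are 10 immediate early transcription factor genes, Fos, Fosb, Jun, Junb, Jund, Egr1, Egr2, Ier2, Atf3 and Nr4a1. They were chosen by symbol, with earlier results of these data known, and each matched 1 of the 39179 genes in the deposited tables. Counts of the 10 set beside shares of all genes are therefore a description. RNA was sequenced from mouse erythroid cells (red cell precursors) collected with magnetic beads against CD71, the transferrin receptor. In all there were 5 libraries. UVB 1 and UVB 2 came from spleens of C57BL/6 mice whose skin was irradiated with UVB at 50 mJ/cm2. Tumor 1 and tumor 2 came from spleens of mice carrying B16 melanoma, a mouse skin tumor line placed under the skin, and their strain labels read C57BL/7 and C57BL/8. The control was 1 library from the steady-state bone marrow of untreated C57BL/6 mice. The sources used here do not give age, sex, the time between treatment and collection or whether replicates were separate animals, so p-values measure only the spread between these libraries, which may be technical. With spleen used for both treated groups and marrow for the control, organ and treatment cannot be told apart in either comparison with the control.

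Immediate early genes are transcribed within minutes of a stimulus, without new protein synthesis, through kinases that act on factors already bound at their promoters, such as the serum response factor SRF with its Elk partners and CREB. Fos and Fosb encode proteins that pair with the Jun proteins to form AP-1, which binds DNA through basic leucine zippers. Egr1 and Egr2 encode zinc finger factors, Nr4a1 an orphan nuclear receptor, Atf3 a stress-induced leucine zipper factor and Ier2 a small nuclear protein. The same genes are well known to respond to growth factors, antigen receptor signals, ultraviolet light and the handling of tissue.

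The libraries held 5003923 to 5921270 reads in genes, and 1 read was worth 0.168 to 0.198 counts per 1000000 reads (CPM). Each deposited CPM appears to include 1 added read. Summed over the 16 matched erythroid markers (of 17 listed, with Tfrc, Klf1 and Gata1 among them) levels were 7329 and 7138 CPM in UVB, 7421 and 6535 CPM in tumor and 6592 CPM in control libraries, with no marker at 0 reads. Erythroid markers were thus detected in every library, but markers of other blood cells were present too. These sums do not measure the share of erythroid cells in a library. In a bulk library, fewer cells of a type and less RNA per cell cannot be told apart.

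All 10 genes stood higher in both UVB libraries than in the control library, and 8 of them, all but Jund and Ier2, were at least 2-fold higher in each. Over all 15006 genes tested, 34.8% stood higher in both UVB libraries and 5.69% at least 2-fold higher in each. In tumor libraries the set was split, with 5 genes above and 5 below the control on average. Against tumor libraries, Fosb, Jun and Egr1 rose in UVB libraries by limma's test on log2(CPM + 1) with Benjamini-Hochberg adjustment over all genes. In that comparison limma called 4.70% of all genes higher and 12.3% lower. The calls of Fosb, Jun and Egr1 were lost when either UVB library was left out. Against the control limma called none of the 10 in UVB libraries, where it called 2.33% of all genes, and none in tumor libraries, where it called 3.79%. DESeq2 called 4 of the 10 for UVB against control, where it called 0.980% of all genes higher and 1.96% lower. The UVB and tumor comparisons with the control share that 1 library.

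**Figure D1:**
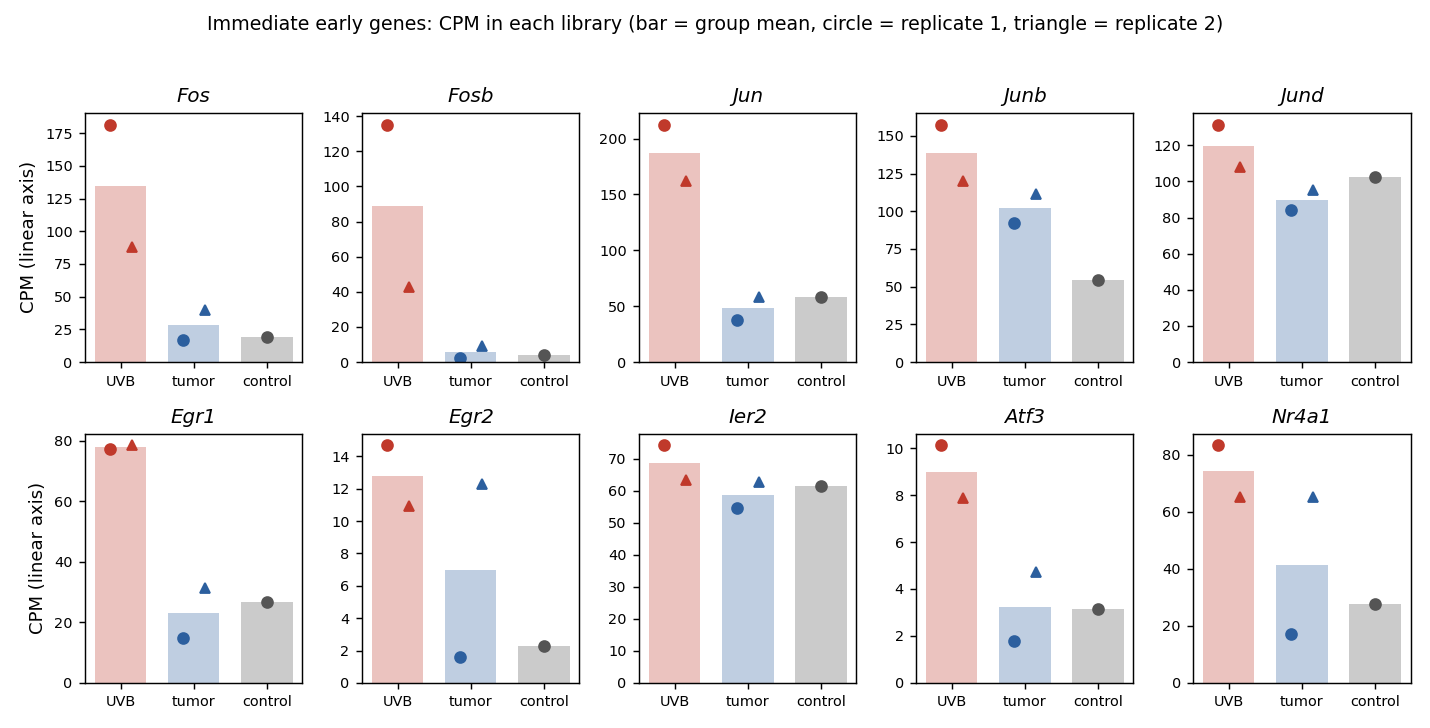
CPM as deposited for each of the 10 genes, on linear axes from 0, in 2 UVB, 2 tumor and 1 control library. Bars are group means and points are libraries. Fos at 182 and 87.9 CPM in UVB libraries lies above every other library, whereas Jund and Ier2 differ little between groups.

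Fosb had the largest difference of the 10. It was at 135 CPM in UVB 1 and 42.8 CPM in UVB 2, at 2.13 and 9.40 CPM in tumor 1 and 2, and at 4.01 CPM in the control library. Both UVB libraries lay above all others, and the tumor libraries lay on either side of the control. The mean was 89.0 ± 65.4 CPM in UVB libraries and 5.77 ± 5.14 CPM in tumor libraries (SD, n = 2 each), and the lowest UVB library was 10.7-fold above the control. The log2 fold change was 3.95 (SE 1.003, adjusted p = 0.181 with limma) for UVB against control and 3.76 (SE 0.82, adjusted p = 0.0479) for UVB against tumor. The control value rested on 22 reads, with an exact 95% Clopper-Pearson interval of 2.42 to 5.85 CPM that covers counting error only. Fosb (ENSMUSG00000003545) lies on the minus strand of chromosome 7, from 19302696 to 19310051 on GRCm38.

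Fos was at 182 and 87.9 CPM in UVB 1 and 2, at 16.7 and 40.2 CPM in tumor 1 and 2, and at 19.4 CPM in the control. The UVB libraries again stood above the rest, the lower of them 4.54-fold above the control. Against the control its log2 fold change was 2.65 (SE 0.67, adjusted p = 0.181 with limma), and against tumor libraries 2.24 (SE 0.55, adjusted p = 0.0573), just outside the threshold of 0.05. Fos (ENSMUSG00000021250) lies on the plus strand of chromosome 12, from 85473890 to 85477273.

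Promoter windows are shown for Fosb and Fos, which stood highest over the control, beside those of Egr2, Nr4a1 and Jun described below. Each runs from 250 bases before to 50 bases after a RefSeq transcription start on GRCm38.p6, 5′ to 3′ in the direction of the gene. Capitals mark TGACG on either strand, the start of the CRE motif TGACGTCA to which CREB and ATF proteins bind, and the CArG box to which SRF binds.
Fosb, chr7:19309996-19310295, minus strand: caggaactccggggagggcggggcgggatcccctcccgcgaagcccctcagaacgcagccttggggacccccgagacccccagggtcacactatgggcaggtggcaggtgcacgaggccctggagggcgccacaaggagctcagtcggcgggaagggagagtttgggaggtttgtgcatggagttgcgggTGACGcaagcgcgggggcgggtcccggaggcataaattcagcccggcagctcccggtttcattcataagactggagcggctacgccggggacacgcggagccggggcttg
Fos, chr12:85473640-85473939, plus strand: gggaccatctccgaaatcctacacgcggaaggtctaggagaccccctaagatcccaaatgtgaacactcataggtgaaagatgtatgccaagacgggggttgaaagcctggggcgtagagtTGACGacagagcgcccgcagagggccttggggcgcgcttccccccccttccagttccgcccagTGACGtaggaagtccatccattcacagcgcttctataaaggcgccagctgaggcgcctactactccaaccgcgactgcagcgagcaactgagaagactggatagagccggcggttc
Egr2, chr10:67537619-67537918, plus strand: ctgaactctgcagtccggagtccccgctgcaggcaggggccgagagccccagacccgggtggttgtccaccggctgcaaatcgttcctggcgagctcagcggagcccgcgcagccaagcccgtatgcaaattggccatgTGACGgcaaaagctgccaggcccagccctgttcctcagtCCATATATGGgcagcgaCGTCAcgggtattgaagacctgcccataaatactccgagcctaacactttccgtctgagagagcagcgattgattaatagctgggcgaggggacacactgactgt
Nr4a1, chr15:101266596-101266895, plus strand: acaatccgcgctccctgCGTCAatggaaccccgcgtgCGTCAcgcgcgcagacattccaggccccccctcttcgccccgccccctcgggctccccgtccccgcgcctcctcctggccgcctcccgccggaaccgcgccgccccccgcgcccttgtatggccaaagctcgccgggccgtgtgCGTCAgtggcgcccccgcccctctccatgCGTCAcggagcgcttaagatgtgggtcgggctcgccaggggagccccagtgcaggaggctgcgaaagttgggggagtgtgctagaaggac
Jun, chr4:95052173-95052472, minus strand: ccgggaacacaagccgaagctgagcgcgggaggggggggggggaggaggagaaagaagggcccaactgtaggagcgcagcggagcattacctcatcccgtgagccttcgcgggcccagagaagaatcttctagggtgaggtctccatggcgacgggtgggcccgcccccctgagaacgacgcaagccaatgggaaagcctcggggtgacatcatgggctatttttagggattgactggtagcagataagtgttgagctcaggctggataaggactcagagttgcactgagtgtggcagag

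RefSeq windows were used for 8 of the 10 genes, all but Egr1 and Ier2, with 5 windows for Egr2. The Jund window runs from 70697489 to 70697788 and ends before the annotated start of that gene at 70698949. Bases around the annotated start of Jund were not searched, so the lack of a motif in its window does not cover them. TGACG was found in windows of 6 genes, Fos, Fosb, Junb, Egr2, Atf3 and Nr4a1, against 20.8% of all 32817 promoter windows of the same length. The shares of all windows count single windows. A gene was counted if any of its windows matched, so the count of genes is not on the same basis. Nr4a1 held 4 matches, Fos 2, at 129 and 66 bases before the start, and Fosb 1, at 60 bases before it. The whole motif TGACGTCA was in none of the 8 genes' windows, and is in 1.79% of all windows. The CArG box was in windows of Egr2 only, though not in the Egr2 window from 67535249 to 67535548. The one shown has it 72 bases before the start, and the box is in 1.63% of all windows. The AP-1 motif TGANTCA was in none of the windows (7.81% of all), and the EGR motif GCGNGGGCG was in those of Fosb and Nr4a1 (5.56% of all). Both strands were searched for each motif, and TGACG is part of TGACGTCA. These matches describe letters within the window and say nothing of binding. Bases further than 250 before a start were not searched, so a motif absent here may lie outside the window.

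Of the Jun family, Jun was at 213 and 162 CPM in UVB 1 and 2, at 37.8 and 58.2 CPM in tumor 1 and 2, and at 58.1 CPM in the control. The UVB libraries stood apart from the other 3, and tumor 2 matched the control. Jun had a log2 fold change of 1.66 against the control (SE 0.32, adjusted p = 0.111 with limma). Against tumor libraries it rose by 1.96 (SE 0.26, adjusted p = 0.0249), the smallest adjusted p among the 10 genes. Jun (ENSMUSG00000052684) is a single-exon gene on chromosome 4, from 95049034 to 95052222.

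Junb, often linked to restraint of Jun activity and to myeloid cells, followed another course. It was at 157 and 120.0 CPM in UVB 1 and 2, at 92.2 and 112 CPM in tumor 1 and 2, and at 54.4 CPM in the control. All 4 spleen libraries stood above the control, and Junb was the single gene of the 10 to do so in both tumor libraries, where 39.3% of all genes tested did. The log2 fold change was 1.32 for UVB against control (SE 0.23, adjusted p = 0.0863 with limma), 0.89 for tumor against control (SE 0.23, adjusted p = 0.116) and 0.43 for UVB against tumor (SE 0.18, adjusted p = 0.147). Junb (ENSMUSG00000052837, chromosome 8, from 84974484 to 84978718) overlaps the peroxiredoxin gene Prdx2 on the opposite strand and no source used here gives the strand setting of the counts. Prdx2 was at 192 and 185 CPM in UVB, 201 and 178 CPM in tumor and 180.3 CPM in control libraries, an order unlike that of Junb. Jun overlaps the antisense gene Junos in the same way.

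Jund, the Jun gene usually described as constitutive, was at 131 and 108 CPM in UVB 1 and 2, at 84.4 and 95.5 CPM in tumor 1 and 2, and at 102 CPM in the control. Jund (ENSMUSG00000071076) lies on chromosome 8, from 70698949 to 70700616. The 3 groups did not overlap, with UVB above and tumor below the control, but the differences were small. The log2 fold change was 0.22 against the control (SE 0.18, adjusted p = 0.612 with limma) and 0.41 against tumor libraries (SE 0.14, adjusted p = 0.109). Both tumor libraries lay below the control for Jund alone of the 10, as for 37.9% of all genes tested.

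**Figure D2:**
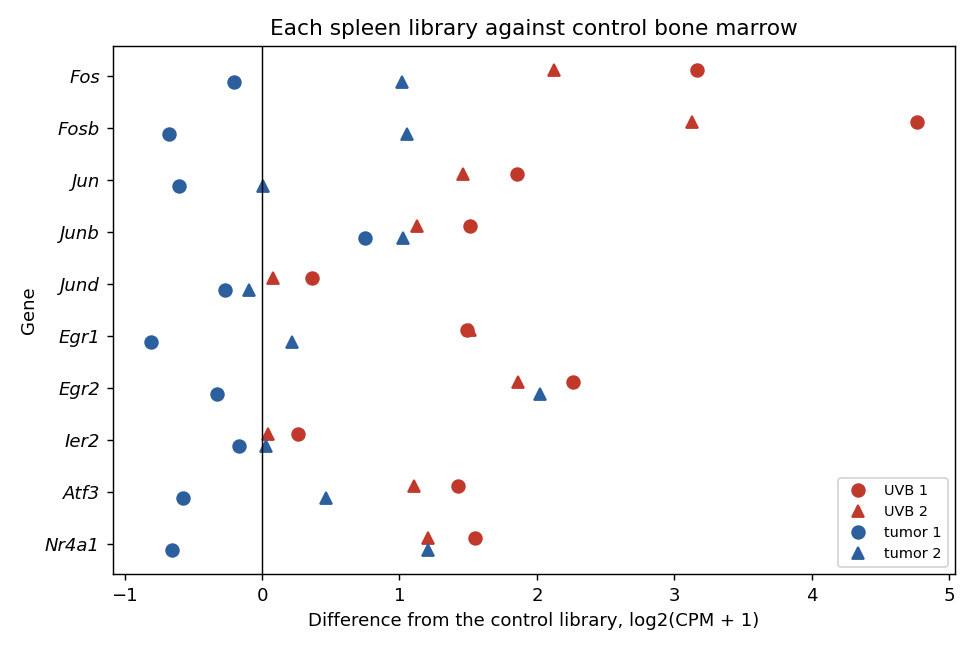
Difference of each spleen library from the control library on the log2(CPM + 1) scale, by gene. The UVB libraries of Fosb lie at 4.76 and 3.13 and those of Ier2 at 0.26 and 0.04. For each of the 10 genes tumor 2 lies right of tumor 1.

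Among the zinc finger genes, Egr1 was at 77.3 and 78.5 CPM in UVB 1 and 2, at 14.9 and 31.5 CPM in tumor 1 and 2, and at 26.9 CPM in the control. The UVB libraries agreed closely (77.9 ± 0.837 CPM, SD, n = 2) and stood above all others, and the tumor libraries lay on either side of the control. Egr1 rose against tumor libraries by 1.80 on the log2 scale (SE 0.37, adjusted p = 0.0438 with limma) and had a log2 fold change of 1.50 against the control (SE 0.45, adjusted p = 0.240). Egr1 (ENSMUSG00000038418) lies on chromosome 18, from 34859823 to 34864984.

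Egr2 (ENSMUSG00000037868, chromosome 10, from 67535475 to 67542188) was low in every library. It was at 14.7 and 10.9 CPM in UVB 1 and 2, at 1.60 and 12.3 CPM in tumor 1 and 2, and at 2.27 CPM (12 reads) in the control. Tumor 2 lay between the UVB libraries, whereas tumor 1 was below the control. Its log2 fold change was 2.06 against the control (SE 1.01, adjusted p = 0.429 with limma) and 1.22 against tumor libraries (SE 0.83, adjusted p = 0.314).

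Nr4a1 was at 83.3 and 65.3 CPM in UVB 1 and 2, at 17.2 and 65.3 CPM in tumor 1 and 2, and at 27.7 CPM in the control. Nr4a1 (ENSMUSG00000023034) lies on chromosome 15, from 101254269 to 101274795. Here too tumor 2 reached the level of UVB 2, and tumor 1 was the lowest library. The log2 fold change was 1.38 against the control (SE 0.79, adjusted p = 0.486 with limma) and 1.11 against tumor libraries (SE 0.65, adjusted p = 0.252).

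Atf3 (ENSMUSG00000026628, chromosome 1, from 191170296 to 191218039) was at 10.1 and 7.89 CPM in UVB 1 and 2, at 1.77 and 4.70 CPM in tumor 1 and 2, and at 3.14 CPM (17 reads) in the control. The UVB libraries were the 2 highest. Its log2 fold change was 1.26 against the control (SE 0.52, adjusted p = 0.364 with limma) and 1.32 against tumor libraries (SE 0.43, adjusted p = 0.0914).

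Ier2 (ENSMUSG00000053560, chromosome 8, from 84661331 to 84662852) varied least over the libraries, at 74.2 and 63.4 CPM in UVB 1 and 2, 54.6 and 62.8 CPM in tumor 1 and 2, and 61.6 CPM in the control. The UVB libraries were the 2 highest by a small margin. The log2 fold change was 0.15 against the control (SE 0.18, adjusted p = 0.726 with limma) and 0.22 against tumor libraries (SE 0.15, adjusted p = 0.294).

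For UVB against control the 10 genes had a median log2 fold change of 1.44, beside -0.06 over all genes tested. By limma 0 of the 10 were called, where 2.33% of all genes were called, 0.180% higher and 2.15% lower. At an unadjusted p under 0.05, Fos, Fosb, Jun, Junb and Egr1 passed, 5 of 10, beside 4.42% of all genes higher. On the recovered reads edgeR called 0 of the 10 (0.773% of all genes), with 5 at an unadjusted p under 0.05. DESeq2 called 4 of the 10 (Fosb, Fos, Jun and Junb, adjusted p from 7.91e-05 to 0.00388), where it called 0.980% of all genes higher and 1.96% lower. Over the 10 alternatives tried, adjusted p ran from 7.91e-05 to 0.716 for Fosb and from 0.000534 to 0.727 for Fos. Without tumor 1 or without tumor 2, whose spread enters the shared error of the fit, limma called 8 of the 10, all but Jund and Ier2, and 20.8% of all genes in each of these fits.

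For tumor against control the median of the 10 was 0.06, beside -0.01 over all genes. By limma, edgeR and DESeq2 0 of the 10 were called, where limma called 3.79% of all genes (1.20% higher and 2.59% lower), edgeR 1.28% (0.207% higher and 1.07% lower) and DESeq2 4.65%. Junb alone had an unadjusted p under 0.05 by each tool, as 11.8% of all genes did in that direction by limma. None of the 10 was at least 2-fold above the control in both tumor libraries, as 3.53% of all genes were. The median depended on which tumor library was used. It was 0.74 without tumor 1, with Junb, Egr2 and Nr4a1 called higher, and -0.45 without tumor 2, with Junb called higher and Jun, Egr1 and Nr4a1 lower. Of all genes, 22.6% were called without tumor 1 and 36.2% without tumor 2. In these fits tumor and control had 1 library each and all of the spread came from the UVB pair, so both were assumed to vary like it.

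For UVB against tumor the median was 1.27, beside -0.01 over all genes, and all 10 differences were above 0. Limma called 3 of the 10 higher (Fosb, Jun and Egr1), where it called 17.0% of all genes, 4.70% higher and 12.3% lower. The same 3 were called by edgeR, which called 4.56% of all genes higher. DESeq2 added Fos, and called 9.47% of all genes higher and 7.64% lower. At an unadjusted p under 0.05 by limma, 6 of the 10 were higher (these 4, Jund and Atf3), as 18.7% of all genes were. The median was 0.56 without tumor 1, with Fos also called, and 2.15 without tumor 2, with all but Ier2 called. Of all genes, 38.0% were called without tumor 1 and 52.6% without tumor 2. In 8 of the 10 genes, all but Egr2 and Nr4a1, both UVB libraries stood above both tumor libraries, beside 34.8% of all genes. Fos, Fosb, Jun and Egr1 were at least 2-fold higher in that sense, 4 of 10 beside 5.47% of all genes. Each call was lost without UVB 1 or without UVB 2, where limma called 0 genes of any kind (2424 and 2681 at an unadjusted p under 0.05). The Fosb call, near the threshold, was also lost with log2(CPM + 0.25) (adjusted p = 0.0521), with scaling by TMM (0.0501) and with no filter on low values (0.0648), and that of Egr1 with no filter (0.0576); over 13 alternatives adjusted p ran from 2.59e-06 to 0.314 for Fosb, from 1.26e-05 to 0.311 for Egr1 and from 4.92e-08 to 0.295 for Jun.

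The 2 libraries of a group differed in these genes more often than in genes at large. Tumor 2 was above tumor 1 in all 10, as in 56.2% of all genes tested, and 6 of the 10 were over 2-fold apart on the log2(CPM + 1) scale, as 11.3% of all genes were. In reads scaled to depth, the ratio of tumor 2 to tumor 1 was 8.54 for Egr2 (exact 95% interval 4.09 to 20.6), 4.73 for Fosb (2.43 to 10.1), 3.82 for Nr4a1 (3.04 to 4.84) and 2.42 for Fos (1.89 to 3.12). It was 1.13 for Jund (0.997 to 1.28) and 1.15 for Ier2 (0.983 to 1.34). These intervals cover counting error only and compare libraries, not conditions. UVB 1 was above UVB 2 in 9 of the 10, all but Egr1, as in 53.2% of all genes. Fosb and Fos, with UVB 1 to UVB 2 ratios of 3.17 (2.74 to 3.68) and 2.07 (1.86 to 2.31), were over 2-fold apart, as 1.85% of all genes were. Fosb and Fos had the highest UVB means over the control, at 22.2-fold and 6.96-fold, and the largest ratios between UVB 1 and UVB 2. In UVB 2 alone Egr2 stood further above the control than Fos, at 4.81-fold against 4.54-fold.

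Levels per kilobase of exon allow genes to be compared with each other. The lengths are the union of all annotated exons, which for Fosb (6.24 kb, from 6 coding transcripts) lowers the level per length. Jund led the 10 in every library, at 78.8 and 64.9 CPM per kb in UVB, 50.6 and 57.3 in tumor and 61.3 in control libraries. In the control, Ier2 (40.4 CPM per kb), Junb (23.6) and Jun (18.2) followed, and Fosb (0.643) and Egr2 (0.667) were lowest. In UVB 1, Fos was just below Jund at 77.2 CPM per kb, and in UVB 2, at 37.4, it was also below Junb, Jun and Ier2. Summed over the 5 AP-1 genes, the level was 313 and 212 CPM per kb in UVB, 109.99 and 143 in tumor and 112 in control libraries. Fos and Fosb together took 31.6% and 20.9% of that sum in UVB, 6.76% and 13.03% in tumor and 7.92% in control libraries. Jund took 25.2% and 30.6% in UVB, 46.0% and 40.2% in tumor and 54.7% in control libraries. With 2 libraries a group these shares are a description.

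**Figure D3:**
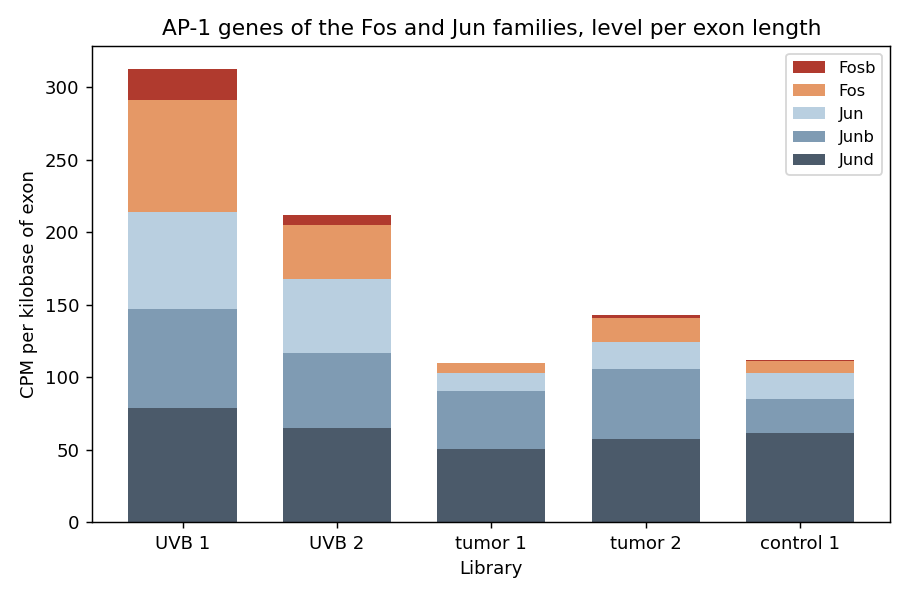
Level of the 5 AP-1 genes in CPM per kilobase of exon (linear axis), stacked by gene, in each library. Fos, Fosb, Jun and Junb are each higher in both UVB columns than in the control column, and the UVB columns stand at 313 and 212 CPM per kb in all. Jund lies between 50.6 and 78.8 CPM per kb.

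The 10 genes differ in structure. Jun, Junb, Jund and Ier2 each have a coding transcript of 1 exon, and the other 6 have introns. Among the single-exon genes, Jun and Junb stood at least 2-fold above the control in both UVB libraries and Jund and Ier2 did not. Reads per base of exon did not exceed 0.397 for any of the 10 in any library, below the highest value of any gene with at least 200 exon bases (0.955 to 1.14 per library). Whether a limit on reads per base narrows the differences of genes below it was not tested.

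Markers of other cells differed between the same libraries. B cell markers (10 of 10 detected in every library) averaged 7.56 and 7.55 in UVB 1 and 2, 5.50 and 7.11 in tumor 1 and 2, and 6.69 in the control on the log2(CPM + 1) scale, and summed to 2181 and 2155 CPM, 494 and 1564 CPM, and 1328 CPM. Macrophage markers (11 of 12 matched, none at 0 reads) summed to 3042 and 2700 CPM in UVB, 1214 and 1800 CPM in tumor and 2183 CPM in control libraries. The mean of the 10 genes, centred over libraries on the log2(CPM + 1) scale, was 1.15 and 0.65 in UVB, -1.07 and -0.02 in tumor and -0.71 in control libraries. The order of the 5 libraries was the same for the 10 genes and for the B cell markers. Both were highest in UVB 1 and lowest in tumor 1, with tumor 2 above the control. For the B cell markers UVB 1 and UVB 2 were nearly equal, at 7.56 and 7.55. Limma called 0 of the 10 B cell markers for UVB against control, tumor against control or UVB against tumor. Of all genes it called 2.33%, 3.79% and 17.0% there. By mean log2(CPM + 1), T and NK cell and dendritic cell markers were lowest in tumor 1 too, at 1.17 and 2.27. T and NK cell markers summed to 137 and 87.3 CPM in UVB, 26.4 and 48.6 CPM in tumor and 148 CPM in control libraries, with 4 of 9 at 0 reads in tumor 1 (Cd3d, Trac, Ncr1 and Nkg7) and 3 of 9 in the control (Cd3d, Cd3g and Cd8a). Dendritic cell markers summed to 212 and 143 CPM in UVB, 133 and 151 CPM in tumor and 88.7 CPM in control libraries, with Cd209a at 0 reads in tumor 1. The part of these cells in the levels of the 10 genes was not tested.

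**Figure D4:**
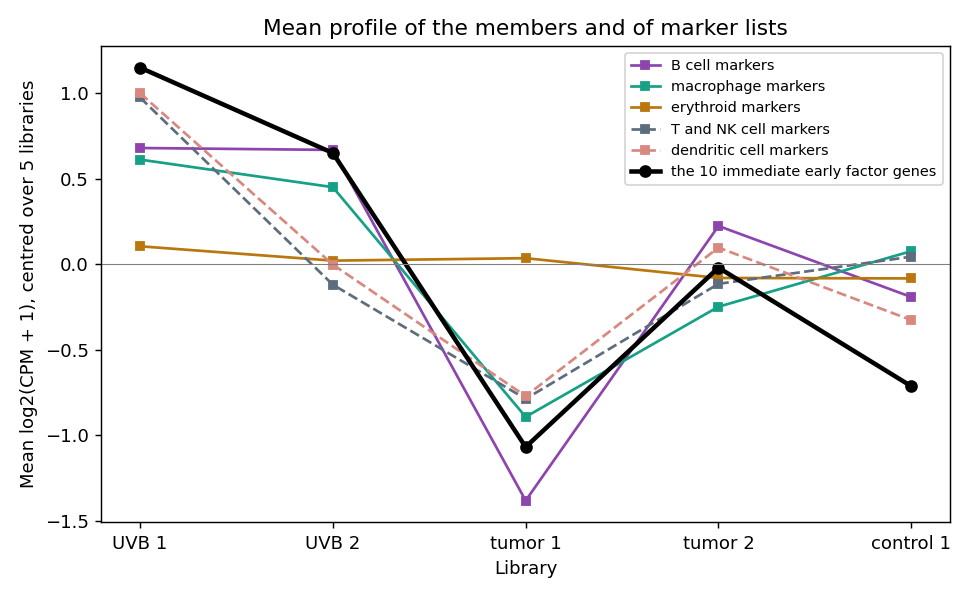
Mean log2(CPM + 1), centred over the 5 libraries, of the 10 genes (black) and of marker lists. Lines only join the points of a list. The 10 genes and the B cell, macrophage, T and NK cell and dendritic cell markers are each lowest in tumor 1. For the 10 genes and the B cell and macrophage markers both UVB libraries stand above the others. The erythroid markers are nearly flat. The highest reads per base of any gene with at least 200 exon bases were 0.955 to 1.14 per library. Whether such a limit flattens abundant erythroid markers was not tested.

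Other lymphoid, myeloid and tissue markers did not follow the order of the B cell markers. By mean log2(CPM + 1), tumor 1 was still lowest for monocyte, neutrophil, pro-B and pre-B, plasma cell and stromal markers. It was not lowest for endothelial or megakaryocyte markers. Monocyte markers summed to 142 and 111 CPM in UVB, 29.3 and 46.3 CPM in tumor and 177 CPM in control libraries. Those of neutrophils were at 62.0 and 86.1 CPM in UVB, 43.6 and 125 CPM in tumor and 1100 CPM in the control, pro-B and pre-B markers at 2.40 and 3.38, 0.536 and 16.03, and 962 CPM, and stromal markers at 4.40 and 5.40, 3.39 and 4.74, and 729 CPM. In the spleen libraries 1 to 3 of the 6 pro-B and pre-B markers, 1 to 3 of the 12 neutrophil markers and 1 to 4 of the 8 stromal markers were at 0 reads, and in the control none of these was. Plasma cell markers (5 of 6 matched) were at 376 and 289 CPM in UVB, 233 and 323 CPM in tumor and 230.2 CPM in the control. Endothelial markers were at 450.4 and 415 CPM in UVB, 149 and 282 CPM in tumor and 341 CPM in the control, and those of megakaryocytes at 56.0 and 49.0, 69.8 and 49.0, and 65.5 CPM. Among endothelial markers, Tek and Emcn were at 0 reads in both UVB libraries.

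Related genes were taken from lists chosen by role. Of 15 tested AP-1 partners and related leucine zipper genes, 0 were called against the control in either comparison. Between the spleens Batf2, a leucine zipper factor of the Batf family, rose in UVB libraries. Batf2 was at 8.13 and 9.06 CPM in UVB, 2.13 and 3.44 CPM in tumor and 5.06 CPM in control libraries (1.36, SE 0.28, adjusted p = 0.0444 with limma). The list had a median log2 fold change of 0.59 between the spleens, where limma called 4.70% of all genes higher.

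The other Egr and Nr4a genes and the Nab corepressors of Egr proteins (5 of 6 tested, Egr4 having no read in any library) had 0 called in any comparison by limma. Their medians were 1.17 for UVB against control, 0.44 for tumor against control and 1.07 for UVB against tumor. Egr3 was at 28.8 and 24.2 CPM in UVB, 4.61 and 16.5 CPM in tumor and 6.28 CPM in control libraries. Nab1 was at 104 and 104 CPM in UVB, 69.0 and 84.5 CPM in tumor and 57.6 CPM in control libraries.

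Of 33 other immediate early and feedback genes tested, 25 lay above 0 for UVB against control (median 0.39, 0 called), 8 for tumor against control (median -0.38, 1 called) and 26 for UVB against tumor (median 1.004). Between the spleens 3 rose in UVB libraries (Sgk1, Dusp4 and Rhob) and 3 fell (Socs3, Ctgf and Myc). These were 3 of 33 each way, beside 4.70% of all genes called higher by limma and 12.3% lower. Sgk1, a kinase induced by serum and glucocorticoids, was at 117 and 101 CPM in UVB, 22.7 and 34.4 CPM in tumor and 97.0 CPM in control libraries (1.92 against tumor, SE 0.23, adjusted p = 0.0226 with limma). Dusp4, a phosphatase of MAP kinases, was at 9.72 and 6.38 CPM in UVB, 1.06 and 1.81 CPM in tumor and 2.27 CPM in control libraries (1.88, SE 0.32, adjusted p = 0.0327 with limma). Socs3, an inhibitor of cytokine signaling, went the other way. It was at 15.9 and 26.2 CPM in UVB, 72.9 and 57.3 CPM in tumor and 10.8 CPM in control libraries (-1.62 for UVB against tumor, SE 0.30, adjusted p = 0.0365 with limma). It was also the 1 gene of this list called higher for tumor against control (log2 fold change 2.47, adjusted p = 0.0462 with limma). Limma called 1.20% of all genes higher there.

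**Figure D5:**
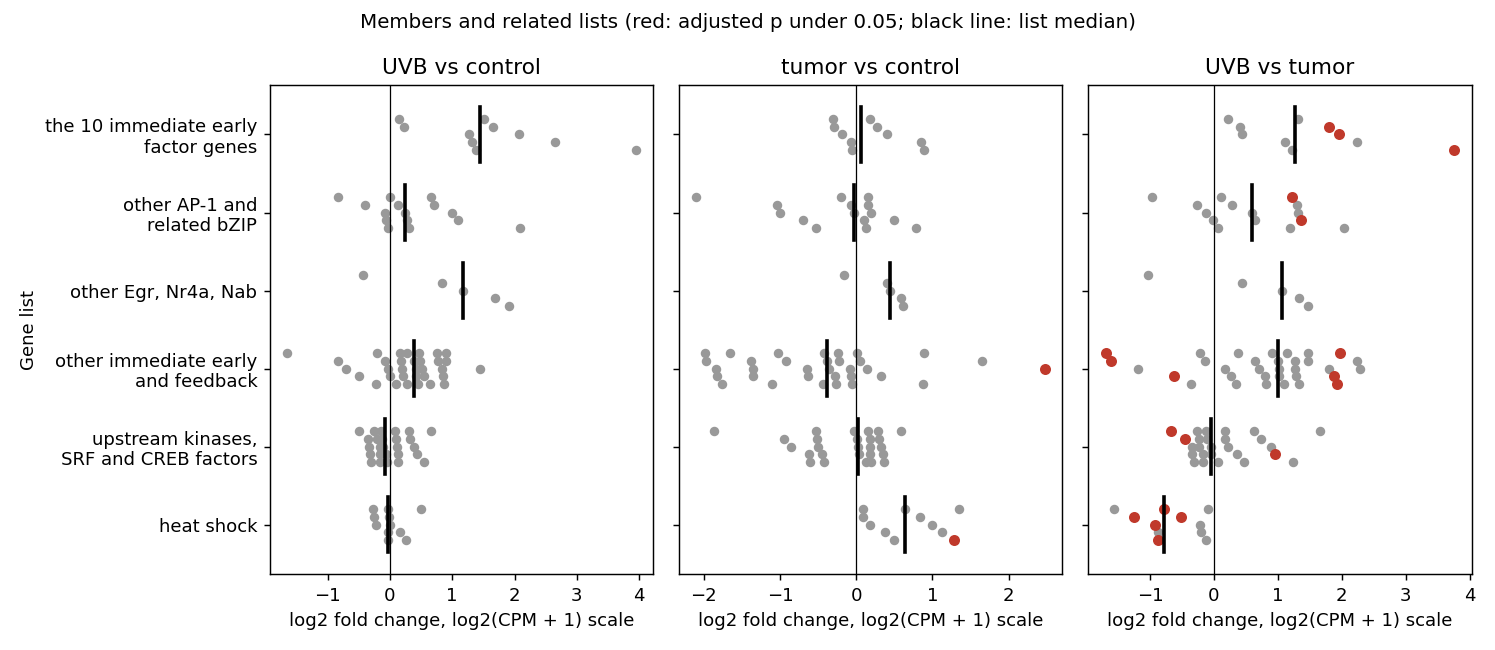
Log2 fold changes on the log2(CPM + 1) scale of the 10 genes and of 5 related lists in the 3 comparisons. Red points have an adjusted p under 0.05 and black lines are list medians. The median of the 10 genes is 1.44 for UVB against control, 0.06 for tumor against control and 1.27 for UVB against tumor.

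Kinases and resident factors that act upstream of immediate early genes formed another list. Of 26 tested, 0 were called against the control by limma in either comparison, and the medians were -0.09, 0.03 and -0.05 for UVB against control, tumor against control and UVB against tumor. Between the spleens Elk1, a partner of SRF, rose in UVB libraries (35.9 and 29.7 CPM in UVB, 14.5 and 18.4 CPM in tumor and 23.9 CPM in control libraries, adjusted p = 0.0498 with limma). Map2k4 and Mapk9, kinases of the JNK pathway that acts on Jun, fell. These calls were 1 of 26 higher and 2 of 26 lower, beside 4.70% and 12.3% of all genes by limma. Map2k4 was at 81.1 and 85.9 CPM in UVB, 138 and 128 CPM in tumor and 103 CPM in control libraries (-0.67 for UVB against tumor, SE 0.10, adjusted p = 0.0301 with limma). Mapk9 had a log2 fold change of -0.45 (SE 0.10, adjusted p = 0.0460 with limma).

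Heat shock genes, often listed beside immediate early genes as signs of stress, differed in the other direction between the spleens. All 11 tested lay below 0 for UVB against tumor (median -0.79). Limma called 5 of them lower, Hspd1, Hsph1, Bag3, Hsp90aa1 and Hspe1, where it called 12.3% of all genes lower. Hspd1, a mitochondrial chaperonin, was at 49.8 and 44.0 CPM in UVB, 87.6 and 90.8 CPM in tumor and 56.9 CPM in control libraries (-0.92, SE 0.12, adjusted p = 0.0249 with limma). Hsph1 was at 125 and 89.1 CPM in UVB, 233 and 273 CPM in tumor and 126 CPM in control libraries. Bag3, a co-chaperone, was at 28.6 and 26.2 CPM in UVB, 49.7 and 46.1 CPM in tumor and 19.0 CPM in control libraries, and was the 1 gene of the list called higher for tumor against control (adjusted p = 0.0445 with limma). Limma called 1.20% of all genes higher for tumor against control. In that comparison all 11 lay above 0, with a median of 0.64. For UVB against control the list had a median of -0.03 with 0 called.

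The 5 genes whose profile over the 5 libraries was nearest to the mean profile of the 10, among 9805 eligible genes (those averaging 10 CPM or more), were Sash1, Aloxe3, the immunoglobulin segment Ighv3-6, Basp1 and Trim30c. Their root mean square differences from it ran from 0.0967 to 0.136 on the log2 scale, against 0.140 for Atf3, the nearest of the 10 themselves, and 1.21 for Fosb, the furthest. Sash1 was at 403 and 332 CPM in UVB, 102 and 191 CPM in tumor and 129.6 CPM in control libraries. Basp1 was at 104 and 92.3 CPM in UVB, 27.7 and 48.5 CPM in tumor and 33.3 CPM in control libraries. With 5 libraries such likeness is a description.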

How the data were processed

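The deposited values were counts per 1000000 reads (CPM) in 2 tables of 39179 genes, 1 with the UVB and 1 with the tumor libraries, each with the same control values. The authors used STAR and HTSeq with build mm10, per the submitters' processing notes; their versions, gene annotation, strand setting and duplicate handling are not given in the sources used. No deposited value was 0, and the lowest value of each library was taken to be 0 reads plus 1 added read. On that basis 100% of values were whole multiples of the worth of 1 read (relative tolerance 1e-06), which gave back whole reads. Columns of log2 fold change that the authors deposited, ratios of 1 library to the control, served only to check the scale.

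The 15006 genes averaging 1 CPM or more were fitted with limma 3.58.1 (trend) on log2(CPM + 1) in 1 two-sided model of the 5 libraries (2 residual degrees of freedom), in which the single control is given the spread of the spleen groups. A Benjamini-Hochberg adjusted p under 0.05 made a call. Log2 fold changes run first group over second and, through the pseudocount, understate changes of low genes. Alternatives were a pseudocount of 0.25, filters of 0 and 5 CPM, TMM scaling, edgeR 4.0.16 and DESeq2 1.42.0 on recovered reads, each library left out, and a replicate block.

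The 10 genes and the lists were chosen with earlier results of these data known. Named besides the 10 are called genes of the pathway lists (the 3 of smallest p where more were called, the others of that count by name only), the 2 highest genes of a pathway list with none called by mean CPM, and the 5 genes of nearest profile. Marker lists are given as sums. Rhob, Ctgf, Myc, Hsp90aa1 and Hspe1 are named only as part of a count. Prdx2 was added because it overlaps Junb. One called gene of the pathway lists is not reported here. Where rows shared a symbol, the row of highest mean CPM was used. GENCODE M21 (GRCm38, the same assembly as mm10) gave positions and exon lengths and held 37693 of the identifiers, and promoters are from RefSeq on GRCm38.p6. Levels per length use all annotated exons of a gene. Python 3.11.15 was used for the rest.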

Additional observations from a re-analysis of the deposited data

Results flagged for a closer look

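The change from the shared control library differed between UVB and tumor libraries for 3 of the 10 genes, by limma's test of UVB against tumor with Benjamini-Hochberg adjustment over all genes. The difference was 3.76 on the log2 scale for Fosb (adjusted p = 0.0479, higher in both UVB libraries than in both tumor libraries), 1.96 for Jun (adjusted p = 0.0249, likewise) and 1.80 for Egr1 (adjusted p = 0.0438, likewise). The 2 changes share the control, which cancels in this difference. Limma called 4.70% of all genes higher here. All 3 calls were lost without UVB 1, without UVB 2 and with the replicate block (adjusted p = 0.0899 for Fosb, 0.0774 for Jun and 0.0803 for Egr1 by limma with the block). Fosb was also lost with a pseudocount of 0.25, with TMM scaling and with no filter, and Egr1 with no filter.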

How the results depend on the processing

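For UVB against control and UVB against tumor, each of the 10 genes kept a log2 fold change above 0 in every alternative tried. Many of these could not change that sign. The filters left each value as it was, as did leaving out a tumor library for UVB against control. For UVB against tumor, so did leaving out the control and the replicate block. Both UVB libraries stood above the control for all 10. Neither a smaller pseudocount nor leaving out 1 UVB library could therefore reverse UVB against control. Genes called for UVB against control numbered 349, and 101 with a pseudocount of 0.25, 541 with no filter, 67 with a filter at 5 CPM, 116 with edgeR and 0 to 3147 with 1 library left out; of the 10 genes 0 were called, 4 with DESeq2 and 0 to 8 with 1 library left out. For tumor against control 569 were called, and 232, 70 and 192 with the pseudocount of 0.25, the filter at 5 CPM and edgeR, and 0 to 5445 with 1 library left out (0 to 4 of the 10). For UVB against tumor 2557 were called, 1556 with no filter (1 of the 10) and 0 to 7900 with 1 library left out (0 to 9 of the 10). The cause of these changes was not tested. Tumor against control changed sign with 1 library left out, with ranges of -0.45 to 0.74 for the median of the 10, -0.20 to 1.02 for Fos, -0.68 to 1.05 for Fosb, -0.61 to 0.0039 for Jun, -0.81 to 0.22 for Egr1, -0.33 to 2.03 for Egr2, -0.17 to 0.027 for Ier2, -0.58 to 0.46 for Atf3 and -0.66 to 1.21 for Nr4a1. For Atf3 it was 0.022 with edgeR and 0.012 with DESeq2. With the replicate block on the 4 spleen libraries, UVB against tumor had 0 genes and 0 of the 10 called by limma (5428 genes and 5 of the 10 at an unadjusted p under 0.05). Nothing in the labels says that the numbers pair libraries; differences between replicate 1 and 2 correlated at -0.111 across genes between the groups, and with crossed numbers, an alternative added after seeing the data, 3071 genes and 4 of the 10 were called. Depth limits Fosb, Egr2 and Atf3 most, with 22, 12 and 17 reads in the control.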

Other observations

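Among the overlapping annotations, the antisense gene Gm11175 at Jund and the small RNA gene Gm24748 at Atf3 had 0 reads in all 5 libraries, which allows up to 3 reads in each. Fos, Fosb, Egr1, Egr2, Ier2 and Nr4a1 overlap no other annotated gene.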
